A study of Homo sapiens with 9 samples.

Results

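The 3′ untranslated region (3′UTR) is the stretch of a gene after the stop codon, and 490 of 40703 merged regions of accessible chromatin in Jurkat T cells had their mid-point in such sequence. The peaks of 4 lists were merged, overlapping or touching peaks being joined. A region was kept when its mid-point lay in the 3′UTR of a protein-coding transcript, outside every coding sequence and more than 2 kb from every annotated transcriptional start site (TSS). The choice used position only, and neither peak height nor presence in a list entered it. Of the other merged regions, 15770 lay within 2 kb of a TSS, 15974 in introns, 7761 in intergenic sequence, 291 in coding exons and 417 in other exons.

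Jurkat cells are an established human T cell leukaemia line, here the Clone E6-1. FAIRE-seq isolates DNA that formaldehyde has not fixed to nucleosomes and sequences it, so that peaks mark accessible chromatin. Of the 9 samples, 4 had a peak list, with 1 library each. By their labels these were non-stimulated (NS) cells and stimulus-withdrawn (SW) cells, each pre-treated with DMSO as the vehicle or with rottlerin, a protein kinase C inhibitor, at 15 μM for 1 h. SW cells were, by the labels, treated for 4 h with 24 ng/mL of the phorbol ester PMA and 1 μM calcium ionophore, then washed and rested for 1 day. The methods give a shorter stimulation. Peaks were called against a total input that mixed DNA from unstimulated and stimulated cells, and no library was made from a mutant line. By the labels none of the 4 lists was of stimulated (ST) or re-stimulated (RS) cells.

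The methods call peaks on the DMSO samples of NS, ST, SW and RS cells, whereas the labels assign 2 of the 4 lists to rottlerin. The 4 lists merged to 40731 regions, of which 28 were left out. These are the counts that the methods give for the pooled peaks of the 4 DMSO samples. The lists labelled rottlerin may thus not be of rottlerin-treated cells. Which treatment the other 3 lists describe is therefore uncertain, and each list is named by its label only. No difference between lists is read as an effect of rottlerin or of stimulus withdrawal. With 1 library a label there was no replicate error and no test between lists, and differences between libraries cannot be told apart from differences between treatments. Intervals are 95% Wilson intervals for shares and exact Poisson intervals for densities, and they cover counting error only. A region without a peak in a list was not called at that library's depth, which is unknown from the lists.

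The 3′UTR of a transcribed gene is known mainly as RNA, in which it carries the polyadenylation signals, the AU-rich elements and the sites of microRNAs and Pumilio proteins that set how long the mRNA lasts. The same bases are also DNA, and accessible DNA within genes can hold enhancers, start sites of other transcripts or sites of architectural proteins. In T cells the AP-1 factors (FOS and JUN), induced by stimulation, bind TGACTCA and TGAGTCA, sought here by the more permissive pattern TGANTCA. RUNX factors bind TGTGGT, and E proteins such as TCF3 and TCF12 bind E-boxes such as CACCTG. NFAT binds GGAAAA when calcium enters the cell, and ETS factors bind GGAAGT.

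Sites in the regions on which the results turn are shown first, written 5′ to 3′ on the strand of the host gene (GRCh37) with the motif in capitals. The first set, chosen after the values were seen, shows AP-1 sites of 5 regions named later that had no peak in the list labelled NS DMSO, out of 56 such regions with the motif. They lie at chr3:190024737-190024765 (*CLDN1*, − strand), chr1:7980825-7980853 (*TNFRSF9*, − strand), chr17:37914616-37914644 (*IKZF3*, − strand), chr1:110779016-110779044 (*KCNC4*, + strand) and chr5:112356332-112356360 (*DCP2*, + strand). The sites of *CLDN1* and *DCP2* read TGATTCA, which only the permissive pattern takes, and lie 134 and 90 bp from the mid-point.
CLDN1: gtaccttcatgTGATTCActgccttcctc
TNFRSF9: gcaaggaaataTGAGTCAtccgctatcac
IKZF3: cccaccgccagTGACTCAtgtatactcca
KCNC4: agtggggcttgTGAGTCAtaacctccagt
DCP2: aggatttccggTGATTCAtgtttgtgaat

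A second set was chosen after the values were seen. It shows AP-1 sites of regions in all 4 lists whose fold enrichment was lowest in the list labelled NS DMSO relative to the others. These are *ZSWIM1* (chr20:44513743-44513771, + strand) and *BHLHE40* (chr3:5025862-5025890, + strand). *SH3RF2*, the next region by this ratio, had no AP-1 motif in the 300 bp around its mid-point and is not shown.
ZSWIM1: cagtcatgagaTGACTCActtaacccgtc
BHLHE40: tattgtcgacgTGACTCAccagacgtcgg

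The last set, also chosen after the values were seen, shows E-box and RUNX sites of regions in the list labelled NS DMSO alone, with the capitals as they read on the gene strand. The E-boxes lie at chr16:89189128-89189155 (*ACSF3*, + strand), 1 of 4 copies in that window, and chr7:154876838-154876865 (*HTR5A*, + strand). The RUNX sites lie at chr7:148117095-148117122 (*CNTNAP2*, + strand) and chr5:132089500-132089527 (*CCNI2*, + strand).
ACSF3: ctgcctctgagCACCTGctctgccggaa
HTR5A: tatgaaagaggCAGGTGttctagctagc
CNTNAP2: actttgtggctTGTGGTtgaaagtcaca
CCNI2: catgctgtgctACCACAgagccattctc

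The labelled cell type was checked by peaks within 1 kb of the TSS of marker genes. Of 15 T cell and Jurkat markers, 13 had such a peak in at least 1 list, among them *CD3D*, *CD3E*, *LCK*, *ZAP70*, *TAL1* and *BCL11B*. Between 9 and 12 of them had a peak in each list. Of 6 B cell markers only *PAX5* had a peak, of 6 erythroid markers only *EPOR*, of 6 hepatocyte markers only *TTR*, and of 6 monocyte markers none. The lists held 18977 peaks (labelled NS DMSO), 20132 (SW DMSO), 23835 (NS rottlerin) and 30409 (SW rottlerin).

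The first question was how often 3′UTR sequence was accessible. There were 30.7 Mb of eligible 3′UTR, and 490 regions gave 15.9 regions per Mb (14.6–17.4). The density in coding exons was 15.8 per Mb (14.0–17.7), that in other exons 15.0 (13.6–16.5) and that in introns 11.5 (11.4–11.7). The 3′UTR density thus lay within the interval of coding exons and above that of introns. A 3′UTR region was a median of 275.5 bp wide (161–1526), against 336 bp for regions within 2 kb of a TSS. The 3 widest lay in *SDR42E2*, a short-chain dehydrogenase gene (1526 bp, in all 4 lists), *FNBP1*, encoding an F-BAR membrane protein (in all 4 lists), and *SCAF4*, encoding an RNA polymerase II tail-binding protein (in the 3 lists other than NS DMSO).

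The regions fell in 471 host genes, 3.08% of the 15271 protein-coding genes with eligible 3′UTR sequence. Genes with more eligible sequence held a region more often, in 0.448% of genes with at most 500 bp and in 8.87% of genes with over 4000 bp. Per Mb of eligible sequence the bins did not order by length, with 18.5 host genes per Mb in the shortest bin, 12.8 in the next and 13.9 in the longest. Host genes had a median of 3483 bp of eligible sequence, against 1286.5 bp for eligible genes without a region. A peak within 1 kb of a TSS of the gene was found for 323 of the 471 host genes (68.6%) and for 54.4% of the 14800 eligible genes without a region, and the part of gene length in this was not tested.

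Within the 3′UTR the mid-points were spread along its whole length. The median host 3′UTR was 3178.5 nt long, and the mid-point lay a median of 1315.5 nt after the stop codon and 1265.5 nt before the transcript end. In 5 bins of equal length along the 3′UTR, each 20% of it, the counts from the stop codon were 90, 90, 121, 91 and 98. The middle bin held 24.7% of the regions (21.1–28.7) and was the only bin whose interval lay above 20%. The rule leaves out coding sequence and sequence within 2 kb of a TSS, and the eligible bases of each bin were not counted. A bin can therefore differ from 20% through the rule itself. The share without a peak in the NS DMSO list was between 52.9% and 60.4% in the 5 bins.

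**Figure D1:**
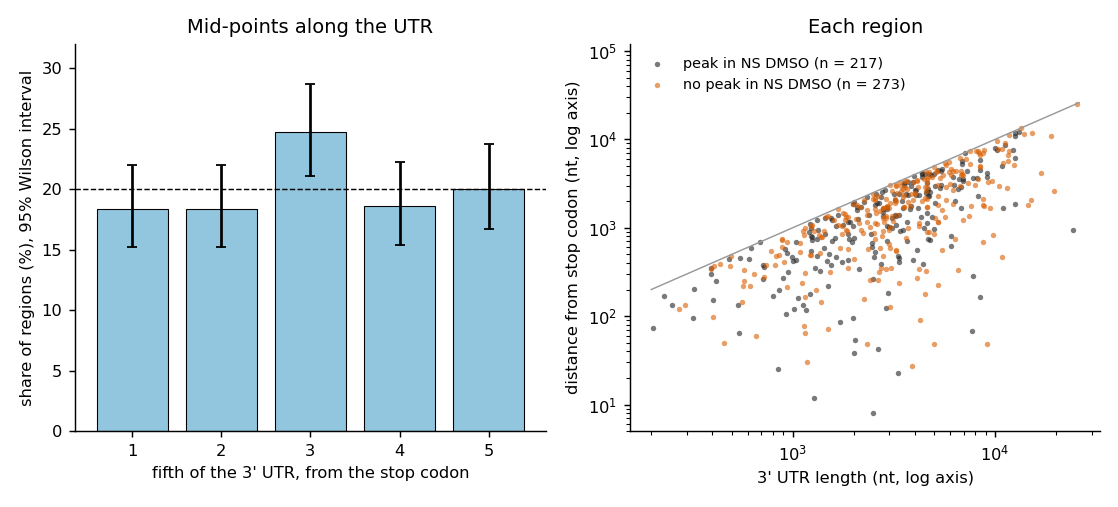
Left, share of the 490 regions in 5 equal bins of the host 3′UTR counted from the stop codon, with 95% Wilson intervals and a dashed line at 20%. Right, distance of each mid-point from the stop codon against 3′UTR length (nt, both axes logarithmic), black for the 217 regions with a peak in the list labelled NS DMSO and orange for the 273 without, the grey line marking the transcript end. The middle bar, 24.7%, is the highest, and both colours are spread over all lengths. The dashed line takes no account of the eligible sequence in each bin.

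Most regions were contained in the untranslated exon: 421 of 490 (85.9%, 82.6–88.7) lay wholly inside 1 exon of the 3′UTR, 47 shared bases with a coding sequence and 36 extended past the transcript end. The nearest TSS belonged to the host gene in 244 of 490 regions (49.8%), and its median distance was 6672 bp. In 81 regions (16.5%, 13.5–20.1) the mid-point also lay in a gene on the other strand, in 12 it lay in the 3′UTR of more than 1 gene, and in 9 in an exon of a non-coding gene. For these a host cannot be told apart from its neighbour. Near the distance limit, the 36 regions 2 to 2.5 kb from a TSS were in all 4 lists in 22.2% and without an NS DMSO peak in 44.4%, and the 40 that missed it at 1.5 to 2 kb in 25.0% and 47.5%.

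By composition the regions resembled other distal regions more than those near a TSS. Their central 300 bp had a median GC content of 43.3% and 3 CpG dinucleotides, against 42.7% and 3 in introns and 58.0% and 16 within 2 kb of a TSS. Only 13 (2.65%, 1.56–4.49) met the composition of a CpG island (GC over 50% and observed-to-expected CpG over 0.6), against 21.0% of all merged regions. The 3′UTR as a whole was less GC-rich: in 93402 windows of 300 bp laid end to end over the eligible sequence the median was 39.7% with 2 CpG.

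Polyadenylation signals and AU-rich pentamers on the gene strand were less frequent in the accessible regions than in these windows. The polyadenylation signal AATAAA stood on the gene strand of 78 of 490 regions (15.9%, 12.9–19.4) against 24.8% of the windows, and its variant ATTAAA in 60 (12.2%, 9.63–15.4) against 18.5%. The AU-rich pentamer ATTTA was present in 168 (34.3%, 30.2–38.6) against 45.1%, and the Pumilio element TGTANATA in 21 (4.29%, 2.82–6.46) against 5.95%, a share within the interval. The higher GC content of the regions moves with these shares, and its part in them and in the motif shares was not tested. On the opposite strand AATAAA was found in 80 regions, ATTTA in 164, ATTAAA in 98 and TGTANATA in 10, so that ATTAAA was more frequent on the opposite strand (20%, 16.7–23.8), as it was in the windows (21.1%), while for the other elements the intervals of the strands overlapped. AATAAA and ATTTA were also less frequent on the opposite strand of the regions (16.3%, 13.3–19.9, and 33.5%, 29.4–37.8) than on that of the windows (27.9% and 45.2%), so the difference from the windows was not particular to the gene strand.

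Motifs of DNA-binding factors were sought on both strands of the central 300 bp of each region. None of the patterns contains another, though sites of different motifs may share bases. RUNX motifs were present in 188 of 490 regions (38.4%, 34.2–42.7) against 18.5% of the 3′UTR windows and 32.8% of all merged regions. AP-1 motifs were present in 77 (15.7%, 12.8–19.2) against 8.98% and 17.9%, and ETS motifs in 115 (23.5%, 19.9–27.4) against 14.7% and 27.6%. The NFAT core was found in 145 (29.6%, 25.7–33.8), against 32.9% of the windows, and the E-box CACCTG in 127 (25.9%, 22.2–30) against 20.6%. The CTCF core motif was in 17 regions (3.47%, 2.18–5.49), against 0.707% of the windows and 2.9% of all merged regions. The E-box CAGCTG was in 87 (17.8%, 14.6–21.4) against 11.7%. The NF-κB pattern, which is permissive, was in 142 (29.0%, 25.1–33.1) against 26.3% of the windows. The GATA motif, AGATAA, was in 112 (22.9%, 19.4–26.8) against 19.4%. The cyclic AMP response element TGACGTCA was found in 0 of 490 regions. This allows a share of up to 0.612% when the limit is set at 3 counts. The element was in 0.0974% of the windows, 0.263% of intronic regions and 0 of 291 coding-exon regions, shares below that limit. Over all merged regions it was in 0.985%. RUNX, AP-1, ETS, CTCF and both E-box motifs were thus more frequent in the accessible regions than in 3′UTR sequence at large, with intervals that did not overlap. The intervals for the NFAT core, the NF-κB pattern and the GATA motif held the share of the windows. Among intronic regions RUNX motifs were in 40.9%, a share that the 3′UTR interval held. AP-1 was there in 22.1% and ETS in 27.5%, above the 3′UTR intervals, and the CTCF core in 1.96%, below its interval. In coding-exon regions RUNX was in 40.2%, AP-1 in 19.2% and ETS in 24.4%. CACCTG was in 21.0% of intronic regions, CAGCTG in 16.7%, the NFAT core in 32.7%, the NF-κB pattern in 25.3% and GATA in 27.0%. The RUNX motif lay within 50 bp of the mid-point at 128 of 238 sites (53.8%), AP-1 at 40 of 87 (46.0%), ETS at 64 of 137 (46.7%) and the NFAT core at 43 of 176 (24.4%). In introns these shares were 49.5%, 49.4%, 45.0% and 32.9%.

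The second question was in which lists the regions had a peak. The list labelled NS DMSO held a peak in 217 of the 490 regions (44.3%), SW DMSO in 192 (39.2%), NS rottlerin in 262 (53.5%) and SW rottlerin in 312 (63.7%). Of all merged regions 46.5%, 49.3%, 58.4% and 74.5% had a peak in these lists, in the same order. Only 76 of the 490 regions (15.5%, 12.6–19.0) had a peak in all 4 lists, where the background over all merged regions was 26.6%. In introns the share was 15.0% (14.5–15.6), in coding exons 16.8% (13.0–21.6) and near a TSS 45.1% (44.3–45.9), so the 3′UTR regions lay with the other distal regions. A peak in 1 list alone was found for 234 regions (47.8%), in 2 for 95 and in 3 for 85. The median of the highest fold enrichment over total input, which by construction is taken over more values where more lists have a peak, was 3.51 for 1 list, 4.30 for 2, 4.55 for 3 and 5.15 for all 4.

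Without a peak in the NS DMSO list were 273 of 490 (55.7%, 51.3–60.1), against a background of 53.5% over all merged regions and 62.1% (61.3–62.8) in introns. Of these, 43 (8.78%, 6.58–11.6) had a peak in each of the other 3 lists, against 7.08%. In the NS DMSO list alone were 64 (13.1%, 10.4–16.3), where the background was 7.83%, intronic regions 9.82% and coding-exon regions 14.4% (10.9–18.9). In SW rottlerin alone were 89 (18.2%, 15.0–21.8) against 18.2%, in NS rottlerin alone 60 (12.2%, 9.63–15.4) against 8.42%, and in SW DMSO alone 21 (4.29%, 2.82–6.46) against 4.32%. In the lists as deposited the shares in NS DMSO alone and NS rottlerin alone thus exceeded the background of all merged regions beyond counting error. The other shares of 1 list did not. The interval for NS rottlerin alone held the 10.2% of intronic regions, so that share was not above introns beyond counting error. In coding-exon regions the share in NS rottlerin alone was 6.87% (4.49–10.4), an interval that overlapped that of the 3′UTR regions. The NS DMSO list is the shortest, and when each list was cut to its 18977 highest-scoring peaks, 149 of 367 regions (40.6%, 35.7–45.7) had no NS DMSO peak and 74 (20.2%, 16.4–24.6) were in NS DMSO alone, beside 41.5% and 13.3% of all merged regions. The share in NS rottlerin alone was then 11.4% (8.58–15.1), an interval that held the 8.78% of all merged regions, that in SW DMSO alone was 5.18% (3.34–7.94), below 8.07%, and that in SW rottlerin alone was 7.63% (5.33–10.8) against 7.85%. At this equal length 45.5% of the regions had a peak in SW DMSO (40.5–50.6) and 47.7% in SW rottlerin (42.6–52.8). These lay below the 58.4% and 58.5% of all merged regions, while 59.4% had a peak in NS DMSO (54.3–64.3) against 58.5%. Shares at equal length were computed for 3′UTR regions and all merged regions only. Whether intronic or other distal regions differ from all merged regions in the same way was not tested.

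**Figure D2:**
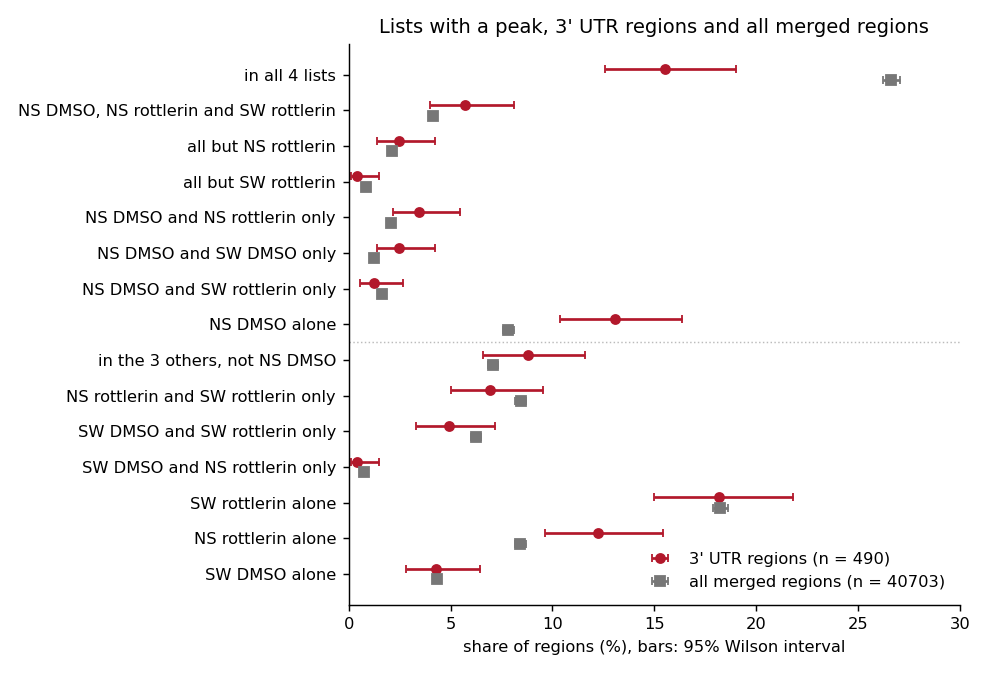
Share of the 490 regions (red circles) and of all 40703 merged regions (grey squares) with a peak in each combination of the 4 lists, with 95% Wilson intervals, combinations with the list labelled NS DMSO above the dotted line. Red lies left of grey for all 4 lists (15.5% against 26.6%) and right of it for NS DMSO alone (13.1% against 7.83%) and NS rottlerin alone.

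For the regions without an NS DMSO peak the nearest such peak was a median of 22748 bp away, and for 4 of 273 (1.47%) it lay within 1 kb. In introns the share within 1 kb was also 1.47% and over all merged regions 2.62%. These 4, named after their values were seen, are in *TOX2*, *ANKS1A*, *DCBLD1* and *FNBP1*. Of the host genes, 17 had 2 regions, with mid-points 307 to 7522 bp apart. In all 17 the sets of lists with a peak were not identical, though some shared a list, and of all pairs among the 490 regions 89.0% had sets that were not identical. *TNRC6B* had 3. It encodes a GW182 protein that carries microRNA-guided repression of 3′UTRs. Its first region, at chr22:40720598-40721593, had fold enrichments of 4.60 (NS DMSO), 4.72 (SW DMSO), 3.44 (NS rottlerin) and 4.01 (SW rottlerin). The middle one had 3.71, 3.58 and 4.41 in the lists other than SW DMSO, and the last, 743 nt before the transcript end, 4.17, 3.46, 4.89 and 3.41. All 3 were thus called in at least 3 lists, with no list highest throughout.

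Where both lists of a pair had a peak, the height was close to equal. The ratio of fold enrichment over the NS DMSO list had a median of 0.973 in the 102 regions shared with SW DMSO (interquartile range 0.884–1.09), 1.05 in the 123 shared with NS rottlerin (0.920–1.23) and 1.08 in the 122 shared with SW rottlerin (0.918–1.20). Over all merged regions the medians were 0.980, 1.04 and 1.06. At least 1.5 times higher in SW DMSO were 3 regions, against a background of 1.67%, and 1 was lower by that factor, against 2.18%. In NS rottlerin 3 were higher (background 3.19%) and 1 lower (1.38%), and in SW rottlerin 6 were higher (4.5%) and 2 lower (1.54%). These shares, between 0.813% and 4.92%, lay near the background. A region called in only 1 list of a pair has no ratio, so large differences in height can be missing from these medians and counts.

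**Figure D3:**
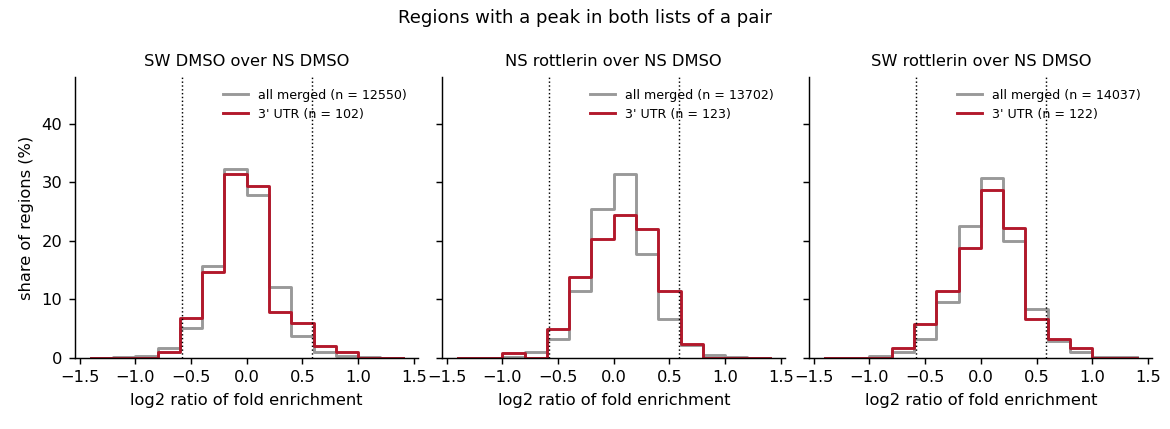
Distribution of the log2 ratio of fold enrichment in each list over that in the list labelled NS DMSO, for regions with a peak in both (red, 3′UTR regions; grey, all merged regions; values past the axis are in the end bins). Dotted lines mark 1.5 times, and few regions of either kind lie outside them.

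The regions past that factor include genes named by no other rule, which were chosen after their values were seen. *ITM2B*, encoding an integral membrane protein, had 2.57 in NS DMSO, 4.51 in SW DMSO and 4.76 in SW rottlerin, a ratio of 1.76 and of 1.85. *ZSWIM1*, a SWIM-domain zinc finger gene, passed it in each pair, with 4.46 in NS DMSO against 7.65, 7.0 and 7.58. *BHLHE40*, encoding a repressor induced in activated T cells, had 3.77 in NS DMSO, 6.44 in SW DMSO, 5.26 in NS rottlerin and 5.36 in SW rottlerin. For these 3 genes the NS DMSO value was the lowest among the lists with a peak, which the choice by this factor largely set. *ITM2B* had no peak in NS rottlerin. *GPR179* (1.57) and *TMEM181* (1.53) were the others higher in NS rottlerin, and *FAM163A*, *PLEKHA3*, *SH3RF2* and *NPTX2* those higher in SW rottlerin, at 1.55, 1.57, 1.74 and 1.64. In the other direction *VSIR*, encoding the checkpoint protein VISTA, had 4.94 in NS DMSO against 3.05, 3.81 and 3.31, and *FARP2*, a guanine nucleotide exchange factor gene, 7.47 against 6.12, 4.11 and 5.70. *PPARA*, a nuclear receptor gene, had 4.89 in NS DMSO and 3.10 in SW rottlerin, and *DPP4*, encoding the T cell surface peptidase CD26, 5.59 and 3.50. The *VSIR* region also lies within *CDH23*.

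Over the regions in all 4 lists, the mean of the other 3 lists divided by NS DMSO was highest in *ZSWIM1* (1.66), *BHLHE40* (1.51) and *SH3RF2* (1.43), the last encoding a scaffold protein with SH3 domains. It was lowest in *VSIR* (0.687), *FARP2* (0.710) and *LRCH1* (0.736), a gene for a leucine-rich repeat protein. The AP-1 motif stood in the central 300 bp of *ZSWIM1* and *BHLHE40*, as printed above, and not in that of *SH3RF2*.

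The highest peaks in 3′UTRs were mostly present in every list. *MORN3*, a MORN-repeat gene, had fold enrichments of 8.36 (NS DMSO), 6.74 (SW DMSO), 7.75 (NS rottlerin) and 9.90 (SW rottlerin), the highest value of any region. *SYP*, encoding the synaptic vesicle protein synaptophysin, had 7.36, 7.72, 9.18 and 7.94 in the same order. *JMJD6*, encoding a lysyl hydroxylase of splicing factors, had 6.79, 7.28, 6.14 and 8.75. The lowest value was in SW DMSO for *MORN3*, in NS DMSO for *SYP* and in NS rottlerin for *JMJD6*, so that no list was lowest throughout. *LRCH1* (8.44, 6.64, 5.99 and 6.01) and *FARP2* were highest in NS DMSO, whereas *ETV3*, an ETS-family repressor gene (5.62, 5.66, 7.22 and 8.25), was higher in the lists labelled rottlerin. *ARSJ*, an arylsulfatase gene, had 6.27, 5.15, 6.68 and 7.68, and *SH3RF2* 4.38, 6.48, 4.63 and 7.62.

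Regions in the other 3 lists without an NS DMSO peak included *CLDN1*, *METTL8*, *KREMEN1* and *CD163L1*, with highest values of 6.58 to 7.12. *CLDN1*, encoding a tight junction claudin, had 5.18 in SW DMSO, 4.92 in NS rottlerin and 7.12 in SW rottlerin. The region, at chr3:190024336-190024898, lies 1451 nt after the stop codon and 6390 bp from the nearest TSS, with no promoter peak in any list and the nearest NS DMSO peak 206500 bp away. *METTL8*, a transfer RNA methyltransferase gene, had 6.53, 6.94 and 6.99. *KREMEN1*, encoding a receptor for Dickkopf proteins, had 5.22, 5.23 and 6.70, and *CD163L1*, a scavenger receptor gene, 4.97, 6.47 and 6.58. In all 4 the SW rottlerin value was the highest.

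The highest regions in the NS DMSO list alone lay in *CCNI2*, a cyclin gene (5.88), *PARD6G*, a cell polarity gene (5.28), *ACSF3*, encoding a mitochondrial malonyl-CoA synthetase (5.28), *CNTNAP2*, encoding a neurexin-related adhesion protein (5.24), and *HTR5A*, a serotonin receptor gene (5.15). The *CCNI2* region also lies in *SEPTIN8* and that of *PARD6G* in *PARD6G-AS1*. No list had a peak within 1 kb of a TSS of *CCNI2*, *PARD6G* or *CNTNAP2*. In SW DMSO alone the highest were *BNC2*, a zinc finger gene (4.27), *RNF44*, a RING finger gene (4.13), and *MAP3K13*, a kinase gene of the JNK pathway (4.10). In NS rottlerin alone they were *DKK3*, a Dickkopf-related gene (5.78), *ETNK1*, encoding ethanolamine kinase (5.77), and *ADGRL1*, encoding latrophilin 1 (5.50). In SW rottlerin alone they were *KCNC4*, a potassium channel gene (5.58), *PARP11*, an ADP-ribosyltransferase gene (5.44), and *MLIP*, encoding a lamin-interacting muscle protein (5.28). The *DKK3* region also lies in *USP47* and that of *ADGRL1* in *ADGRL1-AS1*.

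**Figure D4:**
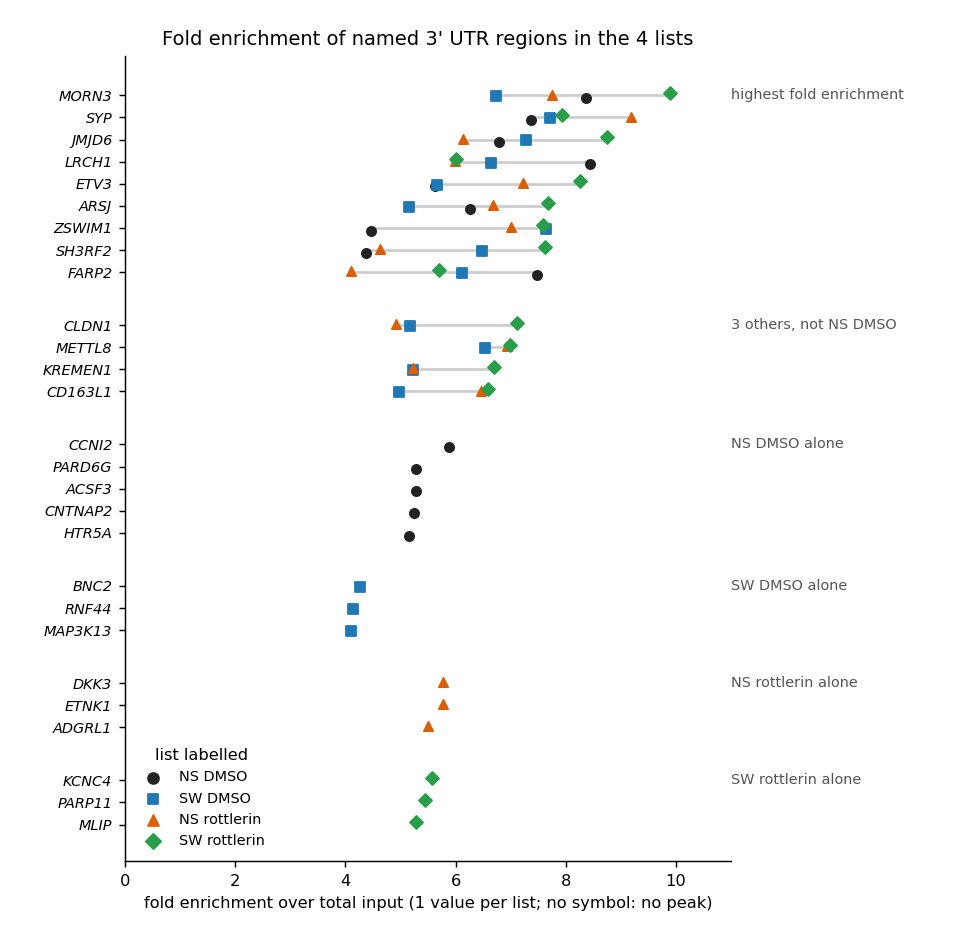
Fold enrichment over total input in each of the 4 lists, for the 3′UTR regions named as highest overall or in a set of lists (black circle NS DMSO, blue square SW DMSO, orange triangle NS rottlerin, green diamond SW rottlerin; symbols are shifted slightly in height, and a missing symbol means no peak). The second group has no black symbol, and the highest regions of 1 list alone, those plotted here, lie between 4.10 and 5.88.

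Motif content differed between the regions with and without an NS DMSO peak. AP-1 motifs were found in 56 of the 273 regions without it (20.5%, 16.1–25.7) and in 21 of the 217 with it (9.68%, 6.42–14.3), and over all merged regions in 25.8% and 8.83%. In the regions of the 3 other lists the share was 12 of 43 (27.9%, 16.7–42.7), in those of SW DMSO and SW rottlerin only 8 of 24 (33.3%, 18.0–53.3), in those of NS DMSO alone 4 of 64 (6.25%, 2.46–15.0) and in those of all 4 lists 7 of 76 (9.21%, 4.53–17.8). The shares for NS DMSO alone and for all 4 lists were no higher than the 8.98% of 3′UTR windows beyond counting error. In NS rottlerin alone it was 6 of 60 (10.0%, 4.66–20.1) and in SW DMSO alone 4 of 21 (19.0%, 7.67–40.0), intervals that also held 8.98%. In SW rottlerin alone it was 17 of 89 (19.1%, 12.3–28.5) and in NS rottlerin and SW rottlerin only 9 of 34 (26.5%, 14.6–43.1). A share above that of the windows was thus not found in every set without an NS DMSO peak. In introns 43.4% (40.6–46.3) of the regions in the 3 other lists held an AP-1 motif, an interval that overlapped that of the 3′UTR regions. Over all intronic regions without an NS DMSO peak the share was 28.2% (27.3–29.1), above the interval of 3′UTR regions.

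RUNX and E-box motifs were most frequent in NS DMSO alone. In NS DMSO alone 34 of 64 regions had a RUNX motif (53.1%, 41.1–64.8) and 29 had CACCTG (45.3%, 33.7–57.4), a pair of motifs chosen after the values were seen. In all 4 lists the RUNX share was 27 of 76 (35.5%, 25.7–46.7) and the CACCTG share 19 of 76 (25.0%, 16.6–35.8), and without an NS DMSO peak they were 96 of 273 (35.2%, 29.7–41.0) and 56 of 273 (20.5%, 16.1–25.7). The RUNX share was 19 of 43 (44.2%, 30.4–58.9) in the 3 other lists, and its intervals overlapped between all of these sets but NS DMSO alone and those without an NS DMSO peak. Over all merged regions of NS DMSO alone they were 46.3% and 39.8%, so these shares were not particular to 3′UTRs, while the RUNX shares of all merged regions with and without an NS DMSO peak were 33.5% and 32.2%. ETS motifs stood in 8 of the 64 regions of NS DMSO alone (12.5%, 6.47–22.8) and in 27.1% (22.2–32.7) of those without an NS DMSO peak. The ETS shares of these sets in introns were 17.7% and 29.1%, so the difference was not particular to 3′UTRs.

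The NFAT core was unequal among the sets of lists without NS DMSO. It was found in 40 of the 89 regions of SW rottlerin alone (44.9%, 35.0–55.3) and in 13 of 24 of SW DMSO and SW rottlerin only (54.2%, 35.1–72.1), but in 6 of the 60 of NS rottlerin alone (10.0%, 4.66–20.1) and 8 of 43 of the 3 other lists (18.6%, 9.74–32.6). In SW DMSO alone it was in 4 of 21 (19.0%, 7.67–40.0), and in NS rottlerin and SW rottlerin only in 9 of 34 (26.5%, 14.6–43.1), intervals that held the share of the windows. In NS DMSO alone it was in 11 of 64 (17.2%, 9.88–28.2). The share over 3′UTR windows, 32.9%, lay above the intervals for NS rottlerin alone, NS DMSO alone and the 3 other lists, and below those for SW rottlerin alone and for SW DMSO and SW rottlerin only. Over all merged regions the shares were 40.6% in SW rottlerin alone and 24.1% in NS rottlerin alone. In introns they were 38.6% in SW DMSO and SW rottlerin only, 31.25% in the 3 other lists and 26.3% in NS DMSO alone. Each lay within the interval of the 3′UTR regions, whereas the intronic 25.7% in NS rottlerin alone lay above it. GATA motifs were found in 13 of the 34 regions of NS rottlerin and SW rottlerin only (38.2%, 23.9–55.0) and in 3 of the 24 of SW DMSO and SW rottlerin only (12.5%, 4.34–31.0), intervals that overlap. The GATA shares of these sets in introns were 37.0% and 21.6%.

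**Figure D5:**
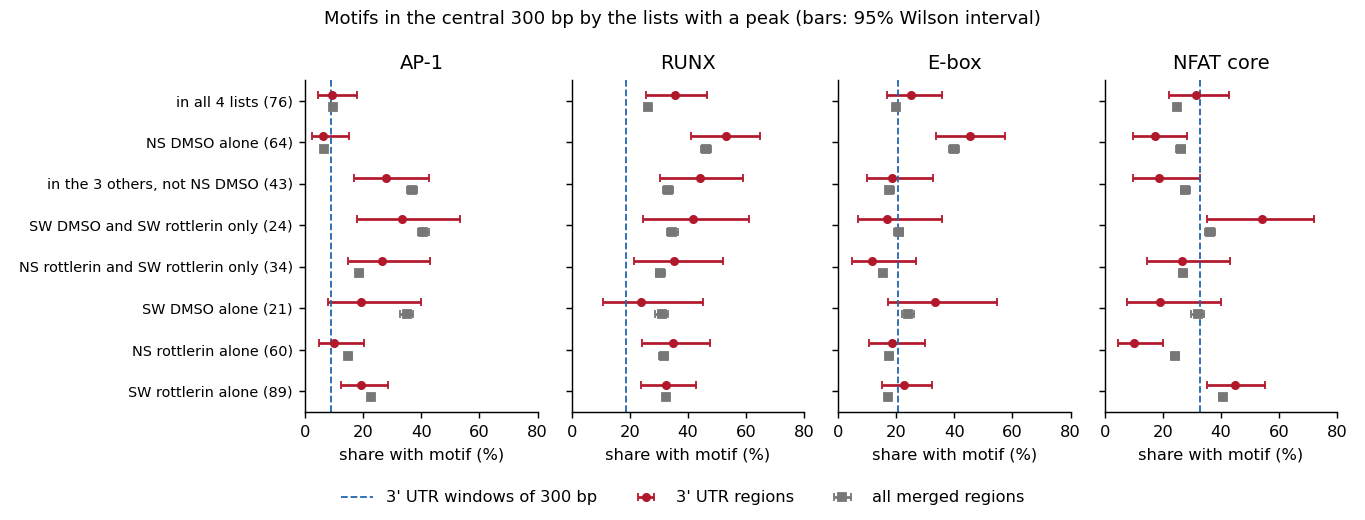
Share of regions with an AP-1 (TGANTCA), RUNX (TGTGGT), E-box (CACCTG) or NFAT (GGAAAA) motif in the central 300 bp, by the lists with a peak (red, 3′UTR regions with their number in brackets; grey, all merged regions; bars are 95% Wilson intervals). The dashed line is the share of 300 bp windows over all eligible 3′UTR sequence. RUNX and E-box shares are highest for NS DMSO alone, and the NFAT share lies farthest below the line for NS rottlerin alone (10.0%) and farthest above it for SW DMSO and SW rottlerin only (54.2%).

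Host genes were read against lists of T cell and regulatory genes. The counts are small, and the 3.08% of all eligible genes is the background for each. Surface receptors and cytokines had 4 hosts of 34 eligible genes. *TNFRSF9*, encoding the co-stimulatory receptor 4-1BB, had 2 regions, 1 near the transcript end with 3.77 in SW DMSO and 6.08 in SW rottlerin, and 1 with its mid-point 48 nt after the stop codon with 4.67 in SW rottlerin alone, which holds the AP-1 site printed above. *IL6R*, the interleukin 6 receptor gene, had 3.42 in NS DMSO alone, *IL21R* 3.14 and *TGFBR2* 3.18, both in SW rottlerin alone. The *IL21R* region also lies in its antisense gene.

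Among transcription factors induced by activation, 3 of 28 held a region. *KLF6* had 3.95 in SW DMSO and 4.14 in SW rottlerin. *NFKB1*, encoding a subunit of NF-κB, had 4.04 in NS DMSO, 5.21 in NS rottlerin and 4.72 in SW rottlerin. *MYC* had 3.05 in NS DMSO and 3.64 in SW DMSO. Of 44 lymphoid and leukaemia factors, *IKZF3*, encoding the Ikaros-family factor Aiolos, had 3.83 in SW DMSO and 3.31 in SW rottlerin, and *CBFB*, encoding the partner of RUNX proteins, 3.46 in NS DMSO alone. Feedback regulators had 3 hosts of 31. *TNFAIP3*, encoding the NF-κB inhibitor A20, had a region 38 nt after the stop codon with 2.90 in NS DMSO alone and a second near the transcript end with 3.44, 4.20 and 4.61 in the lists other than SW DMSO. *DUSP7*, a MAP kinase phosphatase gene, had 4.11 in NS rottlerin alone, and *SPRED2*, encoding an inhibitor of the RAS pathway, 3.66 in SW rottlerin alone.

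Genes whose products act on 3′UTRs had 4 hosts of 52, where the members' median eligible length was 2990 bp against 1335 bp over all eligible genes. Beside *TNRC6B* these were *ZFP36L1*, encoding a protein that binds AU-rich elements (4.50 in NS DMSO, 4.58 in NS rottlerin and 3.47 in SW rottlerin), *RC3H2*, encoding Roquin-2, which binds stem-loops in mRNA (4.22, 3.55, 5.83 and 4.77 over the 4 lists), and *DCP2*, encoding the decapping enzyme (3.42 in SW DMSO alone). Chromatin regulators had 4 of 47, namely *KMT2A* (4.12) and *HMGB1* (3.29) in NS DMSO alone, *SMARCA2* (4.84) in SW rottlerin alone, and *KAT6A* in all 4 lists (4.49, 3.12, 5.19 and 3.23). The *KMT2A* region also lies in *TTC36-AS1*. Ribosomal protein genes had 2 of 17, *RPS19* in all 4 lists (3.79, 4.37, 4.94 and 4.24) and *RPL14* in the lists other than SW DMSO (5.10, 4.71 and 3.84). The cell cycle list had 1 of 28, *WEE1*, encoding a kinase that holds back mitosis (3.22 in NS rottlerin alone), and the apoptosis list 0 of 31. No list was tested, and with counts of 0 to 4 a share near or above the background says little of the list.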

How the data were processed

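FAIRE-seq of Jurkat cells was described by the authors as trimmed with CutAdapt, aligned to Hg19 with Bowtie2, freed of duplicates with Picard and called per sample against total input with the Broad option of MACS2. Versions are not given in the sources used here. The deposited lists of the authors give positions, a ratio (fold enrichment over input), −log10 p- and q-values and a score (10 times the −log10 q-value without decimals). Although the methods state a q-value of at most 0.05, between 0.810% and 1.40% of peaks per list lie above it. Of 40731 merged regions, 28 on other sequences were left out.

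Annotation was GENCODE 44 on GRCh37, whose chromosome lengths match Hg19. Where a list had several peaks in a region, the highest fold enrichment was used. The longest 3′UTR with the mid-point gave the host. Motifs were matched exactly in 300 bp around the mid-point. Members and gene lists were chosen with earlier results of these data known. The printed sites, the 300 bp windows over eligible 3′UTR and the E-box and RUNX shares of NS DMSO alone were chosen after the values were seen. Named were regions of highest fold enrichment overall (10), in the 3 other lists without NS DMSO (5), in NS DMSO alone (5) and in each other list alone (3), the extreme ratios (3 each way), the 3 widest, genes with 3 regions, and listed hosts, apart from items that are not reported here. The steps were tested on simulated data. By the labels 5 samples had no list, so nothing under those labels was analysed here. Alternatives covered the TSS distance, transcripts, merging, list length, chromosomes, lists left out, the fold and the window. Tables were handled in pandas 2.3.3, intervals computed in scipy 1.17.1 and sequence read in pysam 0.24.0 and samtools 1.23.1, with matplotlib 3.10.9 for plots, under Python 3.11.15 and numpy 2.4.6.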

Additional observations from a re-analysis of the deposited data

How the results depend on the processing

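No paired analysis was possible because each label had 1 library and no test was run. Apart from settings that leave out a list, 110 of 117 values of the main summaries stayed within their interval, interquartile range or 1.5 times the count. The exceptions were a TSS distance over 5 kb (311 regions, 13 host genes in the lists against 24), the higher-scoring 50% of each list (203 regions, 11 host genes), equal list lengths (40.6% without an NS DMSO peak, 20.2% in NS DMSO alone) and a 500 bp window (AP-1 share 21.4%). By construction these settings leave fewer regions, shorten the lists or lengthen the sequence searched. Of the other values, among them motif shares by list and counts past the fold, 29 moved and 142 did not. With the higher-scoring 50% of each list 7 of them moved and 7 did not. In that setting 42 of 61 named regions remained, 13 of them with a changed number of lists.

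Leaving out each list in turn gave 402 to 469 regions, 19.9% to 27.8% in every list, 48.1% to 53.5% in 1 list, 45.3% to 53.5% without an NS DMSO peak and 16.2% to 18.9% in NS DMSO alone. The share in every list was 27.8% without the NS DMSO list, over 1.5 times the 15.5% of all 4 lists, since fewer lists had to hold a peak. Without the SW rottlerin list the share without an NS DMSO peak was 45.3%. The AP-1 share ranged from 15.2% to 17%, that without an NS DMSO peak from 20.3% to 23.7%. Peaks with q of at most 0.05, and 3′UTRs of 1 gene with no non-coding exon, were added after seeing the data, and all main summaries stayed within these limits. Counts past 1.5 times were 0 in each list at a factor of 2, and 11 to 27 at the lower factor tried. Precision is limited by 1 library a label, an unknown depth and peak calling, since a region just below the threshold counts as absent.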
